A study of Homo sapiens with 6 samples.

Results

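Integrins and laminins were followed in RNA sequencing of cells labelled NCI-H1703, which the labels describe as a line of lung squamous cell carcinoma. The members are 35 named genes, 25 encoding integrin subunits and 10 encoding laminin chains, and all 35 were found among the 17534 genes of the deposited tables. They were sorted by known ligand and chain type into laminin-binding, collagen-binding, RGD-binding and leukocyte integrins, the shared subunit ITGB1, a pair of alpha subunits outside these classes (ITGA4 and ITGA9), and laminin alpha, beta and gamma chains. The tables also hold integrin and laminin genes outside this list, which were not analysed here.

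The genotype was given as Sh-NC for 3 libraries, the controls, and as Sh-PPM1G for the other 3, which received a short hairpin RNA against the nuclear phosphatase gene PPM1G. The design text calls the control cells wild-type, and neither a hairpin sequence nor a count of hairpins or clones is given in the sources used here. All cells were detached with trypsin-EDTA before RNA extraction, so RNA came from cells taken off their substrate. Nothing in the labels ties the replicates to separate cultures, and the p-values below therefore reflect only how much these 6 samples vary, which can be technical variation.

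Integrins are cell-surface receptors made of an alpha and a beta subunit, and the pair decides which matrix protein is bound. Laminins are cross-shaped trimers of an alpha, a beta and a gamma chain that form the sheet-like backbone of basement membranes and are bound by integrins through the alpha chain. In lung epithelium they anchor cells to the basement membrane, and RGD-binding integrins instead recognise an arginine-glycine-aspartate sequence in proteins such as fibronectin.

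Promoter windows were read for the members as a description of their sequence. A window of 300 bases, from 250 before to 50 after a transcription start, was available from RefSeq (GRCh38.p14) for 20 of the 26 members that were tested, and the first listed window of each gene was used. The windows of the alpha chain genes LAMA3 (chr18:23872770-23873069, plus strand) and LAMA5 (chr20:62367263-62367562, minus strand), whose levels rose, and of LAMB1 (chr7:108003112-108003411, minus strand) and ITGA2 (chr5:52989102-52989401, plus strand), whose levels fell, are shown 5′ to 3′ with every match to a searched motif in capitals:

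LAMA3: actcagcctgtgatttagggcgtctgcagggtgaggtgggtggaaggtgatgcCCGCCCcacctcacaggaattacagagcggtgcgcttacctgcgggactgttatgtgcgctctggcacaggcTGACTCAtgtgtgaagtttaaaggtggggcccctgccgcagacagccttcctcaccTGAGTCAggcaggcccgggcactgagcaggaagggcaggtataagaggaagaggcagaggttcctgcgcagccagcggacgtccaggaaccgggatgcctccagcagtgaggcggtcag
LAMA5: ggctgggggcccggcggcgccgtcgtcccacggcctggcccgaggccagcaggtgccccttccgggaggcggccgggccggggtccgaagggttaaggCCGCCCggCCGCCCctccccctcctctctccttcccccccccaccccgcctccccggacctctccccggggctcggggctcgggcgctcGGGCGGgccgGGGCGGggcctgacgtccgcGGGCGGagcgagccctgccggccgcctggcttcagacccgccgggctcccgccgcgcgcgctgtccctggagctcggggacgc
LAMB1: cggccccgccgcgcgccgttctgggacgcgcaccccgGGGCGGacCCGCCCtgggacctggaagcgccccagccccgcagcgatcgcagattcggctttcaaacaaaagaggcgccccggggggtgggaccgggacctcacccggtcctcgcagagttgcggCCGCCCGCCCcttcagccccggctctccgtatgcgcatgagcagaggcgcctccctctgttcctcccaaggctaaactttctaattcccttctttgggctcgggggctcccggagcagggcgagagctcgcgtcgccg
ITGA2: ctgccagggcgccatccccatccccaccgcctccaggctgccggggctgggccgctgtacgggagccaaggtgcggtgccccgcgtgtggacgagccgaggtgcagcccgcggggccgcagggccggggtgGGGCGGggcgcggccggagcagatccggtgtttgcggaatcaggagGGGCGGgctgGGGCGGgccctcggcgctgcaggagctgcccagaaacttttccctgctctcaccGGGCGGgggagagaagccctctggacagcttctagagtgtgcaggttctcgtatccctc

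These matches describe letters only, show no binding, and were not tested against the direction of change. Searches on both strands covered the AP-1 motif TGANTCA, the GC box GGGCGG, the E-box CACGTG, the amino acid response motif TGATGNAA and the TEAD motif GGAATG, with overlapping matches of a motif counted apart. The LAMA3 window held 2 AP-1 motifs and 1 GC box, whereas the LAMA5 window held 5 GC boxes and 0 AP-1 motifs. The LAMB1 and ITGA2 windows each held 4 GC boxes. An AP-1 motif was in the windows of 2 of the 20 members (LAMA3 and ITGA5), where 7.76% of the windows of 27305 genes hold one. A GC box was in 13 of the 20, against 44.6% of all windows. The median GC content was 61.7% in the member windows and 58.3% in all windows, which also cover genes that were not tested. No enrichment is therefore read from these shares. An E-box was in 1 (ITGA6, against 7.43%), the amino acid response motif in 1 (ITGB5, against 3.67%) and the TEAD motif in 4 (ITGA5, ITGA10, ITGB1 and LAMA2, against 3836 of the 27305 windows). The LAMA3 window lies at an internal start 184 kb into the gene, near which a shorter GENCODE transcript of 5671 bases begins.

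Library totals ranged from 31337553 to 35838246 counts, and the members took 0.517% to 0.525% of the counts in control libraries and 0.413% to 0.414% in PPM1G shRNA libraries. As a check of the labels, PPM1G stood at 333, 308 and 324 CPM in the control libraries and at 182, 194 and 188 CPM in the PPM1G shRNA libraries, where CPM are TMM-scaled counts relative to library size. The groups did not overlap for PPM1G (log2 fold change −0.77, SE 0.03; edgeR adjusted p = 3.3e-20). Of 7 listed markers of squamous lung cells, 6 were in the deposited tables and KRT5 was not. These 6 were low: SOX2 had 22.7 CPM in the controls, TP63 1.54 CPM, and KRT6A, KRT14, DSG3 and PKP1 at most 0.039 CPM. Of 4 lung adenocarcinoma markers, the lineage factor NKX2-1 had 114 CPM in the controls, NAPSA 2.16 CPM, SFTPB 0.048 CPM and SFTPC 0. Of 5 general epithelial markers, KRT8 had 214 CPM, KRT18 98.7 CPM and EPCAM 11.2 CPM, whereas CDH1 had 0.310 CPM and KRT19 0.029 CPM. PDGFRA, which NCI-H1703 is known to carry amplified and to express, had 0.175 CPM in the controls and 0.152 CPM in the PPM1G shRNA libraries. The low squamous markers and PDGFRA go against the label, no lung lineage is assigned here, and the cause was not tested.

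Of the 35 members, 26 passed the filter on low counts. Between the groups 9 of them were higher and 14 lower in the PPM1G shRNA libraries at an adjusted p under 0.05 in edgeR's quasi-likelihood test, and 3 did not pass. That is 23 of 26, against 82.9% of the 13060 genes tested (41.5% higher and 41.3% lower), so the share is near the background. At least 2-fold changes were seen in 4 members upward and 9 downward, against 11.8% and 12.4% of all genes (24.2% in both directions). Of the 4 upward, ITGAM and ITGA11 passed the filter through the PPM1G shRNA libraries only, so nothing is read from that count, and LAMA3 and LAMA5 are the other 2. For 23 members every control lay on one side of every PPM1G shRNA library in CPM, against 83.7% of all genes. ITGAM and ITGA11 are also among the 9 higher members. LAMA1, among the 14 lower and the 9 downward, reached the filter level in 3 control libraries but in 1 PPM1G shRNA library. No difference from the background is therefore read from any of these counts. With 1 CPM required in 3 libraries, which left out ITGAM, ITGA11, LAMA1, ITGAX and LAMC3, 7 members were higher and 13 lower. ITGA7 alone did not pass there, and 85.5% of the 12164 genes tested under that filter were called, so this share is not read as a difference either. The median log2 fold change of the 26 members was −0.24, beside 0.01 for all genes tested. In RNA from whole cultures, fewer cells of a type and less RNA per cell cannot be told apart.

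**Figure D1:**
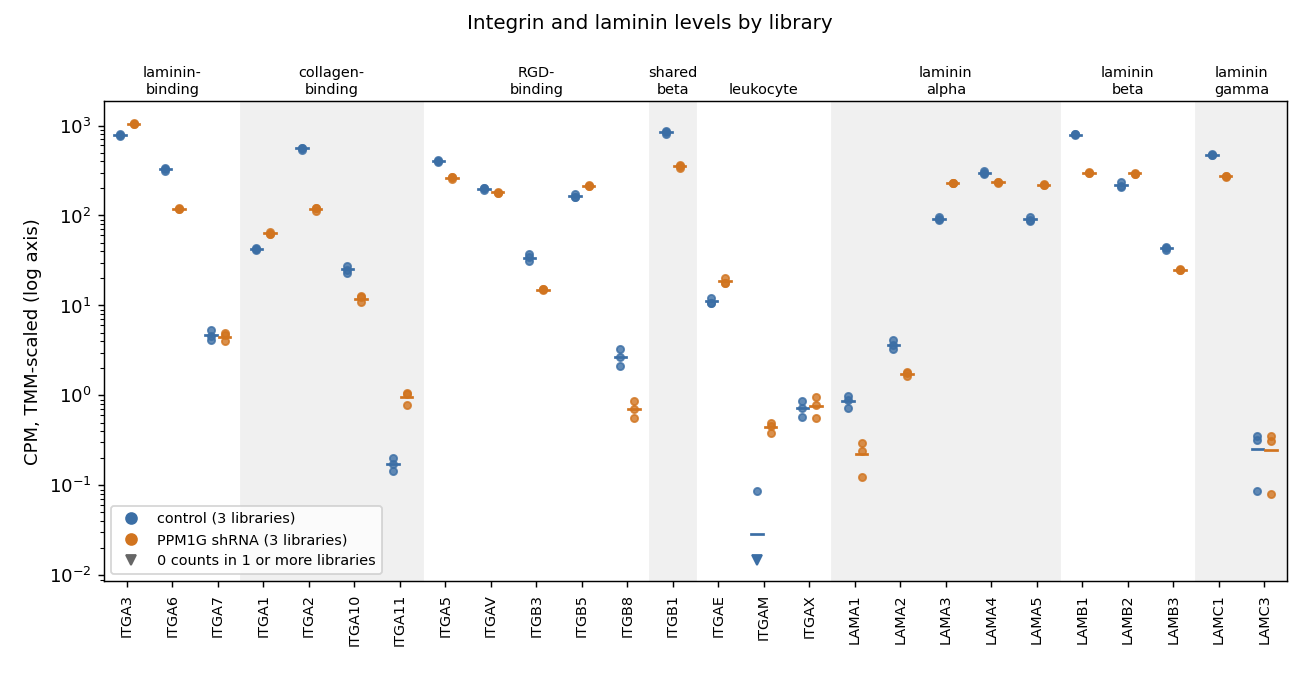
TMM-scaled CPM (log axis) of the 26 tested members in 3 control libraries (blue) and 3 PPM1G shRNA libraries (orange), with horizontal bars for group means and a triangle where a library had 0 counts. ITGA2, ITGA6, ITGB1 and LAMB1 sit lower and LAMA3 and LAMA5 higher in all 3 PPM1G shRNA libraries, and the groups overlap for ITGA7, ITGAX and LAMC3.

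Laminin-binding integrins did not move together: ITGA3 rose, ITGA6 fell, and ITGA7 did not pass the test. ITGA3 (Entrez 3675; chromosome 17, 50056110 to 50090481 on GRCh38) encodes an alpha subunit that pairs with the ITGB1 product and prefers laminins with the LAMA3 or LAMA5 chain. ITGA3 stood at 763.5, 774.8 and 798.0 CPM in control libraries 1 to 3 and at 1061, 1047 and 1047 CPM in PPM1G shRNA libraries 1 to 3. All 3 PPM1G shRNA libraries were above all controls, a rise of 0.43 on the log2 scale (SE 0.03) (1.35-fold; edgeR adjusted p = 2.0e-16).

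ITGA6 (Entrez 3655; chromosome 2, 172427336 to 172506459) encodes the other widespread laminin-binding alpha subunit. It had 329.8, 335.0 and 312.7 CPM in the controls and 118.9, 116.8 and 122.6 CPM in the PPM1G shRNA libraries. The groups were far apart, and ITGA6 fell by 1.45 on the log2 scale (SE 0.03; edgeR adjusted p = 9.6e-28), to 0.367 of its control level. ITGB4, the subunit with which ITGA6 builds hemidesmosomes, was near background with 2, 2 and 6 counts in the controls and 8, 2 and 5 in the PPM1G shRNA libraries, and was not tested. ITGA7, the alpha subunit best known from muscle, had 4.11, 4.55 and 5.37 CPM in the controls and 3.99, 4.65 and 4.90 CPM in the others. Its ranges overlapped, with a log2 fold change of −0.05 (SE 0.15; edgeR adjusted p = 0.76).

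Among collagen-binding integrins ITGA2 and ITGA10 fell and ITGA1 rose, and ITGA11 rose from near background. Their products all carry an inserted ligand-binding domain and pair with the ITGB1 product. ITGA2 (Entrez 3673; chromosome 5, 52989352 to 53094779), which encodes the receptor subunit for fibrillar collagen on platelets and epithelium, had the largest fall among the tested members. It went from 567.4, 568.8 and 540.3 CPM in the controls to 122.7, 113.5 and 122.2 CPM in the PPM1G shRNA libraries. No library of either group came near the other, and ITGA2 fell by 2.23 on the log2 scale (SE 0.03; edgeR adjusted p = 1.9e-32), to 0.214 of its control level.

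ITGA1 (Entrez 3672; chromosome 5, 52787916 to 52959209), which lies next to ITGA2 and prefers basement membrane collagen, moved the other way. It had 43.3, 41.7 and 41.9 CPM in the controls and 62.3, 65.1 and 63.1 CPM in the PPM1G shRNA libraries. The rise was 0.59 on the log2 scale (SE 0.05; edgeR adjusted p = 1.9e-13). The protein-coding gene PELO lies inside ITGA1, with 2570, 2680 and 2725 counts in the controls and 2407, 2863 and 2964 in the PPM1G shRNA libraries. Without a known strand setting, reads of overlapping genes cannot be told apart. This touches 3 tested members with a protein-coding neighbour inside or across them, ITGA1, ITGA7 and ITGAE.

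ITGA10, a subunit known from cartilage, had 22.8, 25.1 and 27.5 CPM in the controls and 12.3, 12.7 and 10.8 CPM in the PPM1G shRNA libraries. It fell by 1.07 (log2; SE 0.08; edgeR adjusted p = 1.6e-13). ITGA11, a fibrillar collagen receptor subunit of fibroblasts, was barely detected in the controls with 7, 5 and 6 counts, and had 34, 29 and 40 counts in the PPM1G shRNA libraries. It rose by 2.45 (log2; SE 0.41; edgeR adjusted p = 2.1e-06), but it passed the filter through the PPM1G shRNA libraries only and stayed near 1 CPM (0.970 ± 0.16, SD, n = 3). Markers of fibroblasts rose beside it in 2 of 4 listed genes, COL1A1 from 154 to 344 CPM and PDGFRB from 3.95 to 9.48 CPM, with the summed list at 153 to 169 CPM in the controls and 350 to 359 CPM in the others. DCN and LUM, which define fibroblasts, were at most at 0.307 CPM in either group, and the part of other cells in the result was not tested.

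RGD-binding integrins had 5 tested members, of which ITGA5, ITGAV, ITGB3 and ITGB8 fell and ITGB5 rose. ITGA5 (Entrez 3678; chromosome 12, 54395261 to 54419266) encodes the alpha subunit of the classical fibronectin receptor. It had 389.8, 400.6 and 418.3 CPM in the controls and 266.9, 267.6 and 257.1 CPM in the PPM1G shRNA libraries. ITGA5 was lower in all 3 PPM1G shRNA libraries and fell by 0.61 (log2; SE 0.03; edgeR adjusted p = 1.7e-18). Its ligand gene FN1 rose from 3041 ± 43.6 to 6545 ± 62.9 CPM (SD, n = 3). FN1 is also a mesenchymal marker, and the other 3 tested genes of that marker list, VIM, CDH2 and ZEB1, fell.

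ITGAV (Entrez 3685; chromosome 2, 186590056 to 186680901) encodes the alpha subunit shared by the vitronectin receptors and by the integrins that activate latent TGF-beta. It had 201.1, 203.7 and 190.3 CPM in the controls and 179.8, 182.9 and 179.8 CPM in the PPM1G shRNA libraries. The groups did not overlap, but the fall of 0.13 (log2; SE 0.03; edgeR adjusted p = 3.9e-04) was the smallest of any called member. Scaled by library totals without TMM factors it was −0.03 with an edgeR adjusted p of 0.34, so this call depends on the scaling, with adjusted p between 8.4e-08 and 0.42 over the 16 alternatives.

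The beta partners of ITGAV went in different directions. ITGB5, which encodes a vitronectin receptor subunit, had 161.0, 160.6 and 171.3 CPM in the controls and 212.6, 219.6 and 210.6 CPM in the PPM1G shRNA libraries, a rise of 0.38 (log2; SE 0.03; edgeR adjusted p = 2.6e-12). ITGB3, the partner best known from platelets, osteoclasts and sprouting vessels, had 31.1, 36.9 and 34.2 CPM against 15.2, 14.8 and 15.05 CPM. ITGB3 fell by 1.18 (log2; SE 0.07; edgeR adjusted p = 2.4e-16), and its PPM1G shRNA libraries lay close together. ITGB8, which presents latent TGF-beta for activation, was scarce with 2.65, 2.13 and 3.28 CPM in the controls and fell to 0.865, 0.567 and 0.700 CPM (log2 fold change −1.92, SE 0.26; edgeR adjusted p = 6.8e-08). ITGB6, a TGF-beta activator of injured epithelium, had between 0 and 12 counts per library, ITGA8 had 1 count in all 6 libraries together, and ITGA2B, the platelet alpha subunit, had 4 to 9, and these were not tested.

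ITGB1 (Entrez 3688; chromosome 10, 32900318 to 32958230) encodes the beta subunit that pairs with most of the alpha subunits above. It had 864.0, 847.5 and 814.4 CPM in the controls and 360.5, 341.4 and 352.8 CPM in the PPM1G shRNA libraries. Both groups were tight and far apart, and ITGB1 fell by 1.26 (log2; SE 0.03; edgeR adjusted p = 1.0e-27), to 0.417 of its control level.

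Integrins of white blood cells were low, and ITGAE alone exceeded 1 CPM. ITGAE, known for holding T cells in epithelium, had 12.3, 10.6 and 10.8 CPM in the controls and 19.97, 17.7 and 17.9 CPM in the PPM1G shRNA libraries, and rose by 0.72 (log2; SE 0.08; edgeR adjusted p = 2.3e-09). The mitotic kinase gene HASPIN lies inside ITGAE and went from 732, 724 and 678 counts to 101, 132 and 136, and the part of shared reads in the result was not tested. P2RX5, which also overlaps ITGAE, had 135 to 149 counts in the controls and 143 to 168 in the PPM1G shRNA libraries. ITGAM, a subunit of myeloid cells, had 3, 0 and 0 counts in the controls and 16, 14 and 17 in the PPM1G shRNA libraries. ITGAM passed the filter through the PPM1G shRNA libraries only, and the scaled ratio of its summed counts was 15.2 (exact 95% bounds 4.88 and 76.1, for counting error alone). The edgeR fit gave it a log2 fold change of 3.77 (SE 0.75; edgeR adjusted p = 3.2e-05). ITGAX, a dendritic cell and macrophage subunit, had 20 to 30 counts in the controls and 18 to 36 in the others (log2 fold change 0.09, SE 0.33; edgeR adjusted p = 0.80).

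The remaining leukocyte subunits ITGAL, ITGB2 and ITGB7 had at most 16 counts in any library, ITGA9 had at most 7, and ITGA4 had 1 count in all 6 libraries together. None of the 9 members left out by the filter passed when edgeR was run without it, with unadjusted p-values between 0.20 and 0.97. In control library 1, 0 counts allow a level of up to 0.0875 CPM (3 counts). Of 7 leukocyte markers, CSF1R and CD68 were tested and fell. The sum of all 7, 1245 to 1302 CPM in the controls and 551 to 583 CPM in the others, was nearly all CD68, which encodes a lysosomal protein also found in other cells. The part of leukocytes in these results was not tested. PTPRC, which marks all leukocytes, had 0.097 CPM in the controls and 0.0090 CPM in the PPM1G shRNA libraries.

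**Figure D2:**
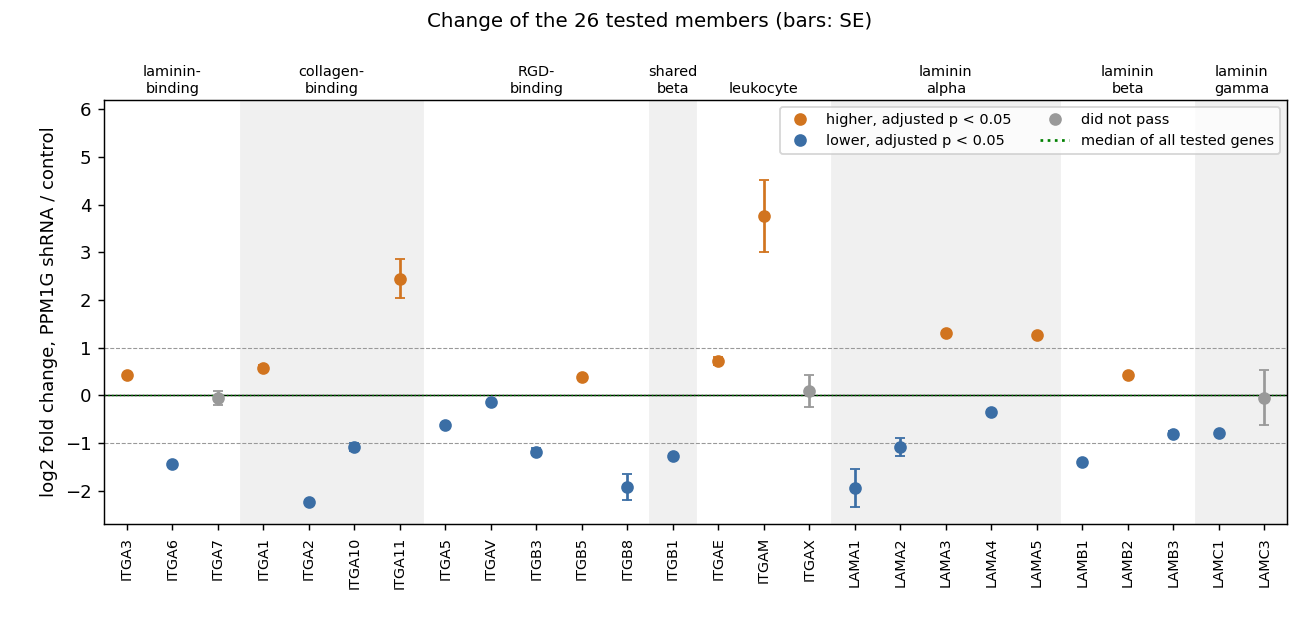
Log2 fold change of each of the 26 tested members (PPM1G shRNA over control; bars are SE, dashed lines mark 2-fold, the dotted line the median of all tested genes). ITGA2 lies lowest at −2.23, and the highest points, ITGAM (SE 0.75) and ITGA11 (SE 0.41), belong to genes under 1 CPM in the control group.

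Laminin alpha chains rose and fell by identity, with LAMA3 and LAMA5 higher and LAMA1, LAMA2 and LAMA4 lower. LAMA3 (Entrez 3909; chromosome 18, 23689453 to 23955066) encodes the alpha chain of the epithelial anchoring laminin and holds the AP-1 motifs of the window above. It had 89.9, 90.8 and 96.6 CPM in the controls and 228.4, 226.9 and 232.4 CPM in the PPM1G shRNA libraries. LAMA3 was higher in all 3 and rose by 1.31 (log2; SE 0.03), or 2.48-fold, with an edgeR adjusted p of 4.5e-26. The counts are per gene and do not separate its long and short forms.

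LAMA5 (Entrez 3911; chromosome 20, 62309065 to 62367312) encodes the alpha chain of most adult epithelial and vascular basement membranes. It had 87.2, 89.5 and 96.3 CPM in the controls and 217.2, 215.7 and 221.9 CPM in the PPM1G shRNA libraries. The level and the change were close to those of LAMA3, with a rise of 1.26 (log2; SE 0.04; edgeR adjusted p = 5.2e-25). LAMA4 (Entrez 3910; chromosome 6, 112107931 to 112254985), the alpha chain of mesenchymal and endothelial laminins, had 288.8, 295.7 and 309.8 CPM in the controls and 238.3, 231.0 and 237.0 CPM in the others. It fell by 0.34 (log2; SE 0.03; edgeR adjusted p = 9.1e-12), with no overlap between the groups.

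The other alpha chains were scarce. LAMA2, the chain of muscle and nerve, had 3.62, 4.14 and 3.28 CPM in the controls and 1.64, 1.78 and 1.80 CPM in the PPM1G shRNA libraries (log2 fold change −1.08, SE 0.19; edgeR adjusted p = 5.2e-06). LAMA1, the chain of the early embryo, had 34, 25 and 31 counts in the controls and 4, 11 and 9 in the PPM1G shRNA libraries. LAMA1 was lower in all 3 (log2 fold change −1.94, SE 0.40; edgeR adjusted p = 5.5e-05), and only 1 of these libraries reached the level of the filter.

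Among the beta chains, LAMB1 and LAMB3 fell and LAMB2 rose. LAMB1 (Entrez 3912; chromosome 7, 107923799 to 108003161), the most widespread beta chain, had 775.8, 794.9 and 798.9 CPM in the controls and 298.4, 300.1 and 300.9 CPM in the PPM1G shRNA libraries. It fell by 1.40 (log2; SE 0.03; edgeR adjusted p = 9.8e-30), to 0.380 of its control level, and libraries within a group differed little. LAMB2 (Entrez 3913; chromosome 3, 49121114 to 49133050), which takes the same place in the trimer in mature vessel, kidney and synapse membranes, had 205.4, 211.5 and 234.5 CPM in the controls and 292.1, 296.5 and 292.8 CPM in the others. LAMB2 rose by 0.44 (log2; SE 0.04; edgeR adjusted p = 1.7e-11).

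LAMB3 (Entrez 3914; chromosome 1, 209614870 to 209652425), which assembles with the LAMA3 product in the epithelial anchoring laminin, did not follow LAMA3. It had 43.8, 41.5 and 45.1 CPM in the controls and 24.9, 25.1 and 24.7 CPM in the PPM1G shRNA libraries, and fell by 0.80 (log2; SE 0.06; edgeR adjusted p = 8.2e-15). LAMC1 (Entrez 3915; chromosome 1, 183023420 to 183145592), the gamma chain of most laminins, had 472.5, 482.7 and 464.6 CPM in the controls and 270.2, 275.5 and 275.8 CPM in the others. LAMC1 fell by 0.79 (log2; SE 0.03; edgeR adjusted p = 1.8e-22). LAMC3, a gamma chain known from brain and skin, had 11, 12 and 3 counts in the controls and 10, 3 and 13 in the PPM1G shRNA libraries, with overlapping ranges (log2 fold change −0.04, SE 0.57; edgeR adjusted p = 0.94).

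To compare levels between genes, the deposited FPKM values were used, which divide by gene length and library total. In the controls ITGB1 had the highest level with 202 FPKM, followed by ITGA3 (152), LAMB1 (117), ITGA5 (90.1), ITGA2 (68.8), LAMC1 (57.7) and ITGA6 (52.3). Next came LAMA4 (38.2), LAMB2 (36.7) and ITGB5 (35.5), and each of these overlapped its neighbour in the order between libraries. LAMA3 (7.88) and LAMA5 (7.59) also overlapped. In the PPM1G shRNA libraries ITGA3 led with 221 FPKM, followed by ITGB1 (90.6), ITGA5 (63.2), LAMB2 (53.3), ITGB5 (49.6), LAMB1 (47.7), LAMC1 (35.8) and LAMA4 (32.3). LAMA3 (21.0), ITGA6 (20.5), LAMA5 (19.5) and ITGA2 (15.8) stood below ITGAV (25.9), and LAMA3 and ITGA6 overlapped between libraries. The place of LAMA3 depends on its length, since with the 5671 bases of its shorter form it would have 15.7 FPKM in the controls and 41.8 FPKM in the others.

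Within each library the share of each gene in the summed FPKM of its kind was then computed over the members. ITGA3 made up 37.6%, 37.6% and 38.7% of integrin alpha FPKM in the controls and 61.4%, 61.3% and 61.5% in the PPM1G shRNA libraries. ITGA2 went from 17.1% ± 0.58 to 4.39% ± 0.18 (SD, n = 3), ITGA6 from 13.01% ± 0.52 to 5.71% ± 0.16, and ITGA5 from 22.4% ± 0.65 to 17.6% ± 0.32. Among beta subunits ITGB1 went from 83.0% ± 0.92 to 63.3% ± 1.0 and ITGB5 from 14.6% ± 0.81 to 34.7% ± 1.1. On this scale, without TMM factors, summed integrin alpha FPKM was 402 ± 4.0 in the controls and 359 ± 1.8 in the PPM1G shRNA libraries, and summed integrin beta FPKM 244 ± 4.7 and 143 ± 1.5.

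Laminin chain shares shifted too. Summed laminin alpha FPKM rose from 54.0 ± 2.0 to 72.9 ± 0.93 (SD, n = 3), while LAMA4 itself went from 38.2 to 32.3 FPKM. Summed laminin beta FPKM fell from 163 ± 4.3 to 107 ± 0.78. LAMA4 made up 70.8%, 70.9% and 70.5% of laminin alpha FPKM in the controls and 44.7%, 44.1% and 44.1% in the PPM1G shRNA libraries. LAMA3 went from 14.6% ± 0.094 to 28.7% ± 0.17 and LAMA5 from 14.1% ± 0.20 to 26.8% ± 0.18. With LAMA3 divided by the 5671 bases of its shorter form instead of 11324 bases, which was chosen after the data were seen, its shares were 25.5% and 44.6%, and those of LAMA4 61.8% and 34.5%. Among beta chains LAMB1 went from 71.8% ± 1.0 to 44.7% ± 0.19, LAMB2 from 22.5% ± 1.0 to 49.9% ± 0.17, and LAMB3 from 5.72% ± 0.22 to 5.38% ± 0.035. The exact two-sided permutation test of such a share cannot go below p = 0.1 with 3 against 3 libraries, and it gave 0.1 for each of these shares.

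**Figure D3:**
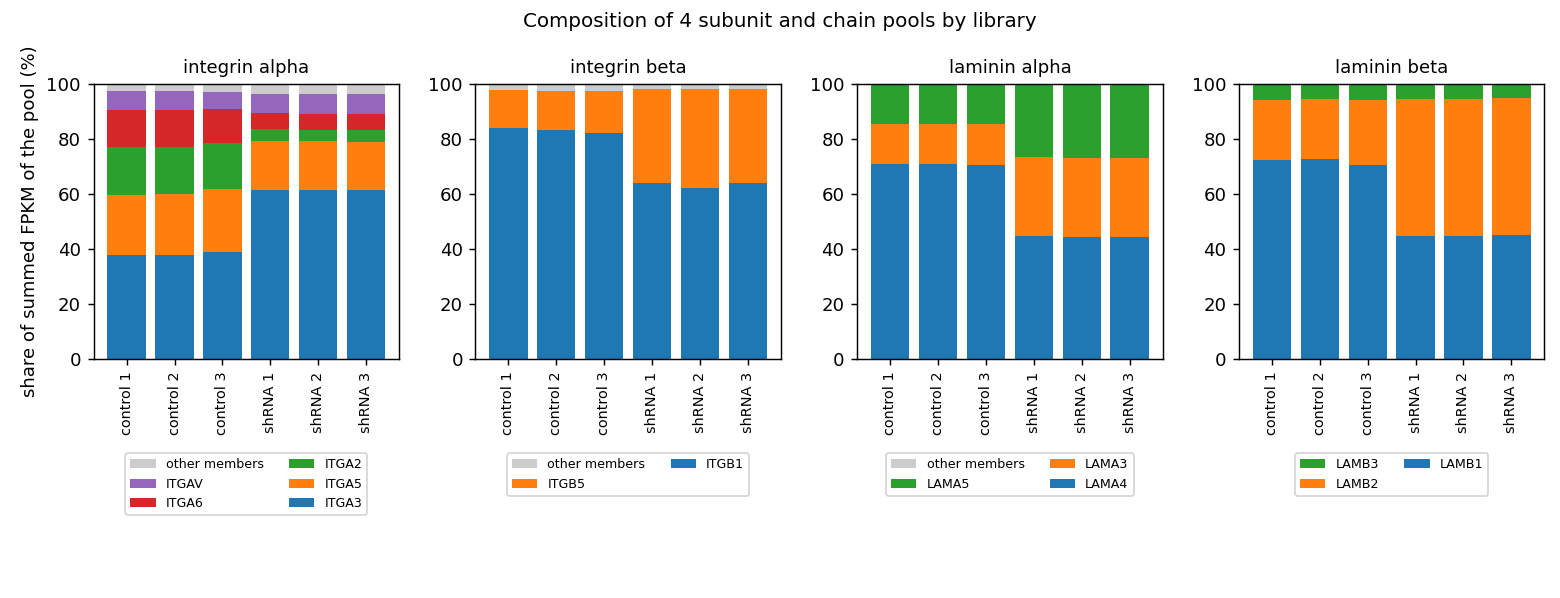
Share of each member in the summed FPKM (percent) of integrin alpha, integrin beta, laminin alpha and laminin beta genes, with 1 bar for each of the 6 libraries. ITGA3, ITGB5, LAMA3, LAMA5 and LAMB2 take larger shares in the 3 PPM1G shRNA libraries, and ITGA2, ITGA6, ITGB1, LAMA4 and LAMB1 smaller ones.

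Partners in a heterodimer or trimer, or laminin chains taking the same place, were compared by the ratio of their FPKM within a library. This was done for 11 pairs, of which LAMB1 with LAMB2 and LAMA4 with LAMA5 take the same place. ITGA6 with ITGB4 was planned too but left out, because ITGB4 was near background. ITGA3 stood at 0.720, 0.745 and 0.798 of ITGB1 in the controls and at 2.40, 2.50 and 2.42 times ITGB1 in the PPM1G shRNA libraries. The ratio of ITGA6 to ITGB1 moved less, from 0.258 ± 0.0049 to 0.227 ± 0.0061 (SD, n = 3), and both genes fell. ITGA5 to ITGB1 went from 0.446 ± 0.030 to 0.699 ± 0.027, and ITGA2 to ITGB1 from 0.340 ± 0.0037 to 0.174 ± 0.0035. ITGAV to ITGB5 went from 0.749 ± 0.053 to 0.523 ± 0.0065, whereas ITGAV to ITGB3 went from 4.82 ± 0.44 to 9.91 ± 0.22.

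For the laminins, LAMA3 to LAMB3 went from 0.844 ± 0.027 to 3.65 ± 0.073. With the shorter LAMA3 form these values were 1.68 ± 0.055 and 7.28 ± 0.15, so which of the 2 genes was higher in the controls depends on the length used. The ratio of LAMA5 to LAMC1 went from 0.132 ± 0.0089 to 0.546 ± 0.0085. In FPKM, LAMB1 exceeded LAMB2 in every control library, at 3.32, 3.30 and 2.99 times its level. It lay below LAMB2 in every PPM1G shRNA library, at 0.897, 0.889 and 0.902. In CPM, which do not divide by gene length, LAMB1 had 298.4, 300.1 and 300.9 there and LAMB2 292.1, 296.5 and 292.8. Which of these 2 genes was higher in the PPM1G shRNA libraries thus depends on gene length. LAMA4 to LAMA5 went from 5.03 ± 0.082 to 1.66 ± 0.025, and LAMB1 to LAMC1 from 2.04 ± 0.053 to 1.34 ± 0.010. The 2 groups did not overlap for any of the 11 ratios. The exact two-sided permutation test gave p = 0.1 for each, the smallest value that 3 against 3 allows, and 0.1 after Benjamini-Hochberg adjustment over the 11 pairs.

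Lists of genes, 9 in all, that work with integrins and laminins were read from the same fit. Of 26 tested integrin activators and adaptors, 8 rose and 14 fell (median log2 fold change −0.08). The focal adhesion crosslinkers ACTN1 (714 ± 8.3 to 263 ± 7.0 CPM, SD, n = 3) and ACTN4 (1456 ± 23 to 642 ± 9.9 CPM) fell, as did the kindlin gene FERMT1 (19.0 ± 1.3 to 5.18 ± 0.82 CPM). Adhesion kinases and signalling genes had 11 rises and 13 falls among 26 (median −0.21), with falls of the SRC-family kinase YES1 (361 ± 14 to 105 ± 1.8 CPM) and of RHOA (523 ± 6.9 to 235 ± 2.4 CPM). RAPGEF1, an exchange factor for RAP1, rose from 276 ± 10.2 to 568 ± 9.6 CPM, and PTK2B, a kinase related to focal adhesion kinase, from 1.22 ± 0.25 to 2.39 ± 0.40 CPM. Tetraspanins and other integrin partners had 6 rises and 6 falls among 15 (median −0.02). SLC3A2, a heavy chain of amino acid transporters that also binds integrin beta tails, rose from 128 ± 7.3 to 553 ± 9.4 CPM, and the urokinase receptor gene PLAUR fell from 182 ± 6.6 to 44.5 ± 0.70 CPM.

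Hemidesmosome and non-integrin laminin receptor genes had 5 rises and 4 falls among 10 (median 0.05). COL17A1, the transmembrane collagen of hemidesmosomes, fell from 44.9 ± 0.75 to 4.68 ± 0.66 CPM, and DAG1, which encodes dystroglycan, a receptor for laminin alpha chains, fell from 132 ± 1.8 to 78.7 ± 2.5 CPM. DMD, which encodes dystrophin, rose from 1.80 ± 0.23 to 3.17 ± 0.52 CPM, and the hemidesmosome linkers PLEC (1745 ± 27.5 to 2251 ± 24.6 CPM) and DST (784 ± 49.95 to 885 ± 16.4 CPM) rose. Basement membrane partners of laminins had 6 rises and 6 falls among 13 (median 0.03). NTN4, a laminin-related netrin that binds laminin gamma chains, rose from 11.4 ± 1.1 to 60.0 ± 2.5 CPM. Laminin processing, glycosylation and removal genes had 5 rises and 8 falls among 15 (median −0.50), with MMP1 falling from 1020 ± 35 to 109 ± 3.0 CPM.

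Matrix ligands changed in both directions. RGD-type and other soluble ligands had 11 rises and 7 falls among 22 (median 0.19): tenascin-C (TNC) fell from 2090 ± 91 to 394 ± 5.4 CPM and thrombospondin-1 (THBS1) rose from 12.8 ± 0.34 to 76.5 ± 4.2 CPM. Collagen ligands had 4 rises and 2 falls among 8 (median −0.03), with COL13A1 falling from 27.1 ± 1.8 to 9.04 ± 0.17 CPM. Integrin trafficking and turnover genes had 10 rises and 8 falls among 20 (median 0.20), led by CYTH3, an exchange factor for ARF6, which rose from 63.3 ± 1.7 to 131 ± 3.5 CPM. Read against the background of 82.9% called among all genes, between 75.0% and 92.3% of the tested genes of each list were called. All genes of these lists given with values passed edgeR's test at an adjusted p under 0.05.

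**Figure D4:**
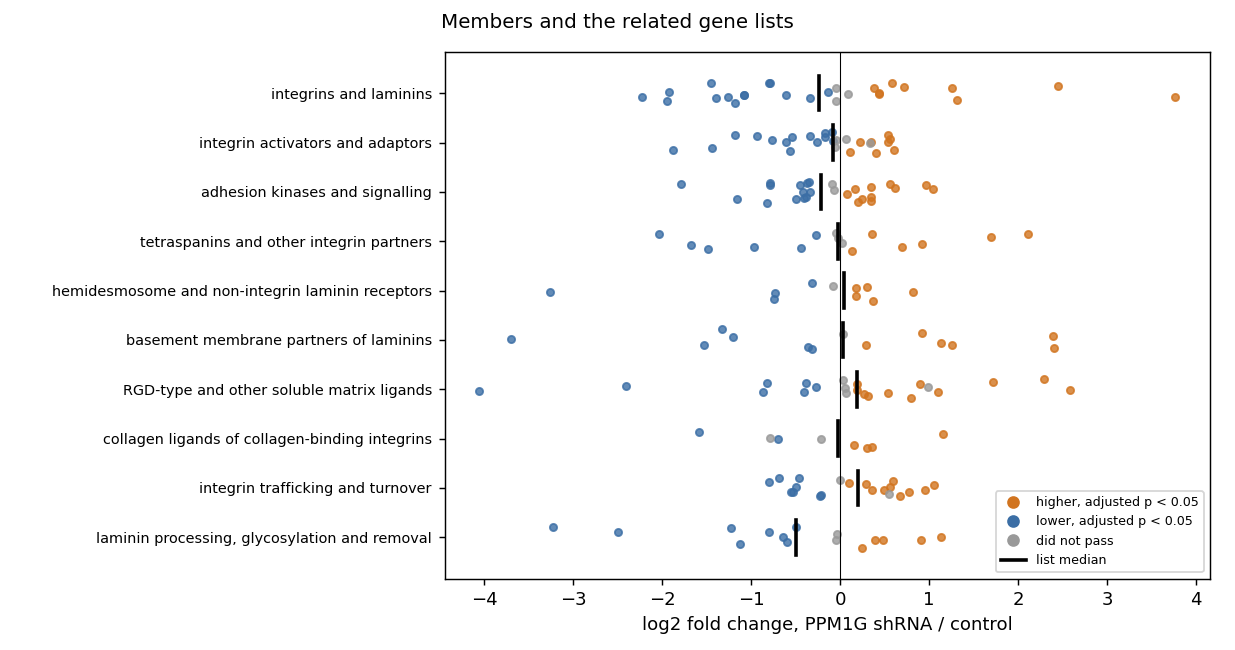
Log2 fold change (PPM1G shRNA over control) of the tested members and of the tested genes of 9 related lists, 1 point per gene, with the list median as a vertical bar. Every row spreads to both sides of 0, and the list medians lie between −0.50 and 0.20.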

How the data were processed

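The authors deposited whole-number counts per gene and library and a matching FPKM table. Per the submitters' processing notes the build was GRCh38, and no aligner, counting program, annotation or strand setting is named in the labels or files. From the values, each deposited FPKM scales the count to the library total and to a fixed gene length. Counts were compared with edgeR 4.0.16 (R 4.3.3): filterByExpr at a minimum of 10 counts, TMM factors, robust quasi-likelihood fits with the group as the only term, and Benjamini-Hochberg adjustment over all 13060 genes tested. SE was taken from the fold change and the F statistic. Exact permutation tests used SciPy 1.17.1. DESeq2 1.42.0 and limma 3.58.1 (on voom values and on log2 FPKM) served as alternatives. The fit was also run on simulated counts in which few genes changed. That setting differs from these data, and nothing here rests on it. Libraries of a group differed by more than sampling noise (2.69 to 6.44 chi-square units for each degree of freedom), so none was treated as a repeat deposit of another. This does not show that they came from separate cultures. Gene positions and promoter windows came from RefSeq, and LAMA3 forms from GENCODE. All 35 members are reported, and genes of related lists were named from the 4 called ones that changed most in each. FN1, PLEC, DST and the cell type markers fall outside this rule, and FN1, PLEC and DST were chosen after their values were seen. Gamma chain shares were left out, since the members do not hold every gamma chain gene. Members and lists were chosen with earlier results of these data known.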

Additional observations from a re-analysis of the deposited data

How the results depend on the processing

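Over 16 alternatives and the 23 called members, 362 of 365 results kept direction and call. The 3 exceptions were all ITGAV: scaling by library totals without factors gave −0.03 (adjusted p = 0.34), and log2(FPKM + 1) and log2(FPKM + 0.1) in limma gave −0.03 each (adjusted p = 0.41 and 0.42). ITGAM, ITGA11 and LAMA1 have no result under the filter of 1 CPM in 3 libraries, so the 365 do not count them there. Between 65.4% (no filter on low counts) and 85.5% (1 CPM in 3 libraries) of all genes tested were called in these alternatives. Nothing particular to the members is read from the tally. Counts of at least 2-fold higher members were 2 when 1 CPM was required in 3 libraries, a filter that left ITGA11 and ITGAM out, and 2 under both FPKM settings. The 2-fold lower count was 7 with library totals, 6 with log2(FPKM + 0.1) and 4 with log2(FPKM + 1), and the FPKM settings change both the scaling and the added constant. The members that did not pass had no stable sign. ITGA7 was 0.0513 with library totals, 0.0247 and 0.0466 with the FPKM pseudocounts of 1 and 0.1, and −0.128 to 0.0623 with 1 library left out. LAMC3 was 0.0546, 0.00248 and 0.0169 in the same settings and −0.449 to 0.385 with 1 library left out, and ITGAX −0.112 to 0.267. Scaling by library totals shifted the median of all genes by 0.10. Same-numbered libraries did not deviate together (correlations 0.037, 0.012 and 0.008), and the replicate block left the counts at 9 higher and 14 lower. Of the shares checked in CPM without gene length, all but that of ITGA10 in the controls differed from the FPKM share by more than its SD. LAMA4 had 61.3% in the controls and 34.4% in the PPM1G shRNA libraries, LAMA3 19.0% and 33.5%, and ITGA3 33.15% and 57.3%. In the PPM1G shRNA libraries LAMB1 had 48.5% and LAMB2 47.5%, the reverse of their FPKM order. Counting depth limits the members under 1 CPM.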
